A study of Mus musculus with 28 samples.

Results

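Niche extracellular matrix genes of the subependymal zone (SEZ), where adult mice make new olfactory bulb neurons, were described across cell sorts and cell states. The genes were Thbs4, Tnc, Vcan, Bcan, Ncan, Hapln1, Slit2, Sparc, Sparcl1 and Htra1, taken by symbol from every deposited table, and they are 10 of the 17690 gene rows. All 10 had a row. Estimated transcripts over all passing cells ranged between 87.29 for Tnc and 23821.5 for Sparcl1.

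The extracellular matrix of the brain is a mesh of hyaluronan, proteoglycans and glycoproteins in which stem cells, progenitors and migrating neuroblasts sit. Versican (Vcan), brevican (Bcan) and neurocan (Ncan) are lecticans, chondroitin sulphate proteoglycans that bind hyaluronan, and the link protein encoded by Hapln1 fastens lecticans to hyaluronan. Tenascin-C (Tnc), thrombospondin-4 (Thbs4), Sparc and the related Sparcl1 are matricellular glycoproteins that act on cells rather than build fibres, Slit2 is a secreted guidance cue read by Robo receptors on migrating neuroblasts, and Htra1 is a secreted serine protease.

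The start regions of Thbs4, Tnc, Vcan and Ncan are shown because they share a 7-letter word, GTGGGAA on either strand, the core read by the Notch effector RBPJ. Each runs 5′ to 3′ on the gene's strand, with 250 bases before and 50 after a RefSeq transcript start, and capitals mark each match.
Thbs4: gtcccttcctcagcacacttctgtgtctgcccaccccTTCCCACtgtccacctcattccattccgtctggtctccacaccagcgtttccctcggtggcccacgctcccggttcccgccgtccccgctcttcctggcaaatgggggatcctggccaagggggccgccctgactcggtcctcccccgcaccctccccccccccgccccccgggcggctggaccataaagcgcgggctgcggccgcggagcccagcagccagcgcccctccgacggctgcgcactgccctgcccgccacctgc
Tnc: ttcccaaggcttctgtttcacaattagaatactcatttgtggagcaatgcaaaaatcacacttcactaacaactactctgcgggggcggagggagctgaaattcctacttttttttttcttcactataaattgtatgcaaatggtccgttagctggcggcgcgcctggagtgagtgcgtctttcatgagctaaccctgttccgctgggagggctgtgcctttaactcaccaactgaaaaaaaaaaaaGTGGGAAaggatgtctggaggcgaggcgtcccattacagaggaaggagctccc
Vcan: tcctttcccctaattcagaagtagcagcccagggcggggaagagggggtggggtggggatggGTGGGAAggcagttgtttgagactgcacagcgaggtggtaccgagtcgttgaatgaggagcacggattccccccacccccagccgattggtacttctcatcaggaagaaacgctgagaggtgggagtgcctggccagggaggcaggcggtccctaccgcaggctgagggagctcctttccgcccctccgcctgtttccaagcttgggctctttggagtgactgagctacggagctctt
Ncan: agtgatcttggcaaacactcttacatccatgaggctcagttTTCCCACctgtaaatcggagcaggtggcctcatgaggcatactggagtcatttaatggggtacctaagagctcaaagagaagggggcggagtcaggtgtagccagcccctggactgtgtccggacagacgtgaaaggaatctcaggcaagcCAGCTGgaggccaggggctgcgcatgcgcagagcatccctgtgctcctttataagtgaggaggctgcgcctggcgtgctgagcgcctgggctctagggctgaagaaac
These windows lie on the minus strand at chr13:92794769-92795068 for Thbs4, chr4:64046966-64047265 for Tnc, chr13:89742463-89742762 for Vcan and chr8:70120795-70121094 for Ncan, on GRCm38.p6. RefSeq windows were matched for 9 of the 10 genes, and that for Sparcl1 was not used here. GTGGGAA stands in 6.38% of 32851 mouse promoters of this length. The Ncan window also holds CAGCTG, an E-box letter run that is present in 16.3% of promoters and also in the Sparc window. Neither ACAAAG, a Sox-type word found in 18.7% of promoters, nor the NFI-type palindrome of TTGGC and GCCAA with 5 bases between them, found in 0.0365%, stands in any of the 9 windows, and Bcan, Hapln1, Slit2 and Htra1 hold none of the 4 words, all searched on both strands. A match is a run of letters, and binding was not measured.

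On GRCm38, in GENCODE M21, all 10 are protein-coding genes. Hapln1 (chromosome 13, 89539796 to 89611652, plus strand) and Vcan (chromosome 13, 89655312 to 89742509, minus strand) are neighbours. Thbs4 lies at 92751590 to 92794818 on the same chromosome, and Slit2 (47983138 to 48307733) and Sparcl1 (104079111 to 104113733) share chromosome 5. Bcan lies on chromosome 3 (87987531 to 88000230), Htra1 on chromosome 7 (130936111 to 130985660), Ncan on chromosome 8 (70093085 to 70120873) and Sparc on chromosome 11 (55394500 to 55423183). Tnc (chromosome 4, 63959785 to 64047015) overlaps 2 exons of 8030451A03Rik on the opposite strand, which has no row in the tables.

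The study sorted single SEZ cells by reporter or surface label and counted their transcripts by SORT-seq, a plate-based 3′ method with molecular barcodes, in 28 libraries, 4 per sort. All mice were on the Bl/6 strain, aged 8 to 10 weeks unless stated. The mixed day-60 sort (314 cells, 8 to 19 weeks) joined O4+ cells with tdTomato cells of the SEZ or the olfactory bulb, from Ki67iresCreER and Rosa-tdTomato mice at 60 days past 1 tamoxifen dose of 5 mg, O4 being an oligodendrocyte antigen. The day-60 tdTomato sort (349 cells, 16 to 19 weeks) and the day-2 tdTomato sort (220 cells) came from Ki67-iresCreER +/ki Rosa-tdTomato +/ki mice, in which 5 mg tamoxifen, given once, marks cells that are dividing and whatever they become, 60 or 2 days later. The Ki67-RFP sort (315 cells) took cells of Ki67-tagRFP ki/ki mice, where the red protein reports the proliferation gene Ki67. The GLAST/EGF sort (216 cells) used an antibody to the glial transporter GLAST, binding of fluorescent EGF, or both. The Prom1/CD24 sort (64 cells) used antibodies to Prom1 and CD24. The Troy-GFP sort (311 cells) took cells of Troy-GFPiresCreER +/ki mice, in which Troy, the receptor Tnfrsf19, marks neural stem cells (NSCs). The number of mice is not given, and each library holds 96 wells, so the libraries of a sort may be parts of 1 plate and p-values then measure only the spread between those parts.

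A well with at least 1000 estimated transcripts was taken as a cell, which kept 1789 of 2688 wells, 11 to 89 per library; the study states about 1500 good cells of about 2500. Transcripts per library ranged between 43149 and 572793, the lowest in the Prom1/CD24 sort, whose spike-in share was 44.3 to 56.8% and whose libraries correlated with one another at 0.58 to 0.73, against 0.89 to 0.96 within other sorts. Libraries of the Troy-GFP and GLAST/EGF sorts held Y-linked transcripts (290.4 to 407 CPM for 4 genes) with Xist at 0 to 9.213 CPM. The other 5 sorts held Xist at 110.8 to 773.6 CPM and those Y-linked genes at 0, so sex differs between the sorts as well as label. A second flow cell is named for GLAST/EGF libraries 3 and 4 and for Troy-GFP libraries 1 and 2, and the day-2 libraries name none. A cluster of 35 cells was led by gut genes such as Adh1 and Reg1. It lay in Troy-GFP library 2 (24 cells, 31.6% of that library) and GLAST/EGF libraries 3 and 4 (11 cells). A rule against naming gut-led clusters, written after the clusters were seen, kept it unnamed. It entered no named class, so it is not in the NSC-like shares or NSC-like comparisons below.

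Cells were grouped by the rest of the transcriptome, without the 10 genes and without 120 other listed matrix, receptor and protease genes, and groups were named from markers. Levels are CPM, transcripts of a gene scaled to a common library total, in the summed cells of a group. NSC-like cells (635), whose markers do not separate quiescent NSCs from astrocytes, held 90.4% of all Hapln1 transcripts, 89.1% of Htra1, 87.3% of Bcan and 83.7% of Sparcl1, while they were 35.5% of the cells. The unnamed gut-led cluster carried these genes too. It stood at 298.7 CPM for Hapln1, 1784 for Htra1, 2377 for Bcan and 4717 for Sparcl1. NSC-like cells stood at 245.6, 1608, 2883 and 6098 CPM for the same genes. Thbs4 stood at 246.1 CPM in the gut-led cluster and 131.8 CPM in NSC-like cells. Slit2 lay mostly in progenitor-like cells (activated NSCs or transit-amplifying cells), with 62.8% of its transcripts in 20.9% of the cells. These cells held a median of 9401.2 transcripts, against 4904.1 in NSC-like cells, so their shares of transcripts also reflect depth. By level, Slit2 stood at 41.09 CPM in progenitor-like and 15.99 CPM in NSC-like cells. Vcan transcripts were spread over several classes: progenitor-like cells held 23.3%, 23 oligodendrocyte precursor-like cells 23.2%, neuroblast-like cells 22.2% and NSC-like cells 15.7%. Vcan levels in these classes, in the same order, were 67.85, 1644, 290.4 and 51.3 CPM. The unnamed cluster 15 (86 cells) held 118.1 of the 1069 Vcan transcripts. Sparc was spread over NSC-like cells (37.6%), endothelial-like cells (15.7%), microglia-like cells (13.2%) and cluster 21 (11.2%).

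**Figure D1:**
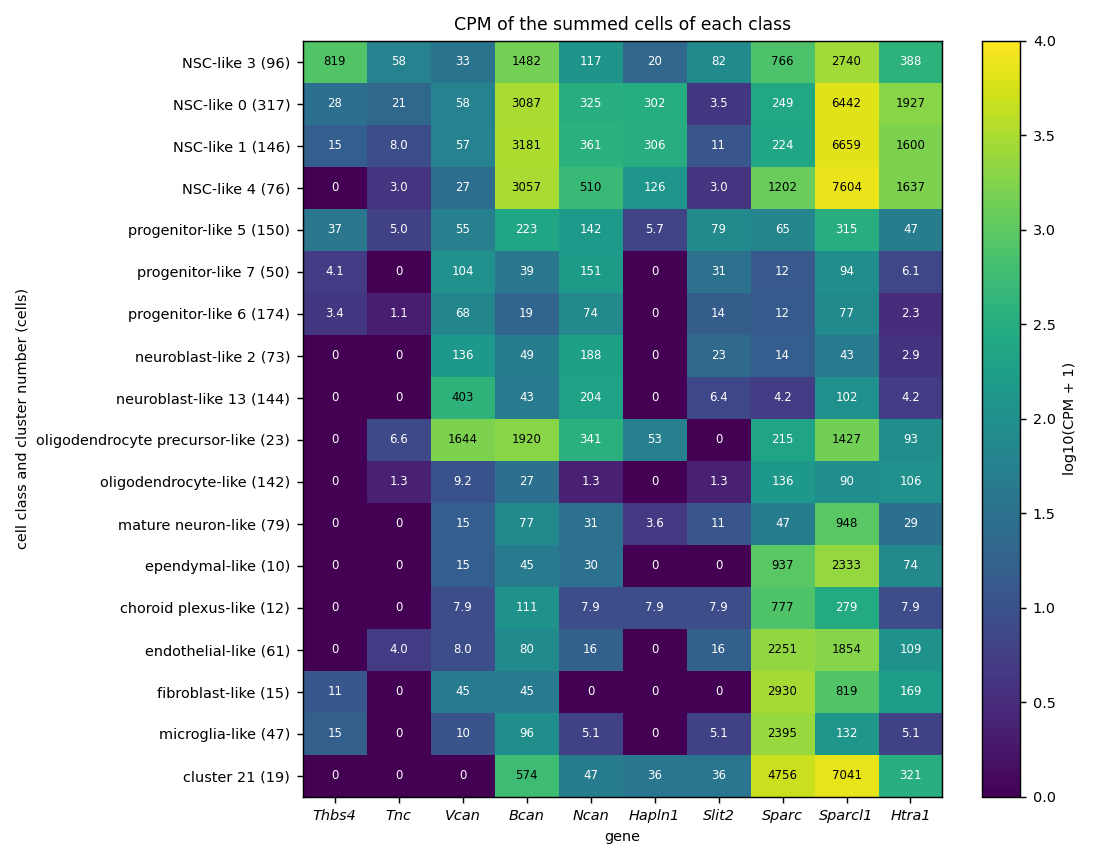
CPM of each matrix gene (columns) in the summed cells of named classes, split by cluster where a class has several, and of the unnamed cluster 21 (rows, cells in brackets); colour is log10(CPM + 1). Other unnamed clusters are not shown. Thbs4 stands out in NSC-like cluster 3 at 819 CPM, Vcan in oligodendrocyte precursor-like cells at 1644 CPM and Sparc in vascular, microglial and cluster 21 cells.

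Within the NSC-like class, the matrix genes did not move as one. The class fell into 4 clusters, numbered 3 (96 cells, with S100a6, Cpe and Sfrp1 among its leading genes), 0 (317 cells, led by Cxcl14, Grin2c and Slc1a2), 1 (146 cells, led by Crym and Dkk3) and 4 (76 cells, led by Agt and Islr). Thbs4 stood at 819 CPM in cluster 3 (95% counting interval 737.1 to 907.5), against 28.03 in cluster 0, 14.66 in cluster 1 and 0 in cluster 4, where 3 transcripts would be 8.944 CPM. Cluster 3 held 67.9% of all Thbs4 transcripts in 5.37% of the cells.

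Tnc and Slit2 had their highest NSC-like level in the same cluster. Tnc stood at 57.53 CPM in cluster 3, against 20.91, 7.988 and 2.987 CPM in clusters 0, 1 and 4. Slit2 stood at 82.04 CPM in cluster 3, against 3.484, 10.67 and 2.987 CPM in those clusters. Progenitor-like cluster 5, with Egfr and Lima1 among its leading genes, came close to it for Slit2, at 78.6 CPM. Slit2 was lower in the other progenitor-like clusters, at 30.58 CPM in cluster 7, led by the replication gene Mcm5, and 14.18 CPM in cluster 6, led by the mitotic gene Top2a.

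The lecticans of glia, the link protein and the protease ran the other way. Hapln1 stood at 19.88 CPM in cluster 3, against 301.6, 306.4 and 125.7 CPM in clusters 0, 1 and 4. Htra1 stood at 388.3 CPM in cluster 3 and at 1600 to 1927 CPM in the other 3 clusters. Bcan stood at 1482 CPM against 3057 to 3181 CPM, and Sparcl1 at 2740 CPM against 6442 to 7604 CPM. Sparc had 2 high clusters, 3 at 765.7 CPM and 4 at 1202 CPM, with clusters 0 and 1 at 249.4 and 223.7 CPM. These levels describe the clusters and carry no test, since the clusters were drawn from the same cells.

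**Figure D2:**
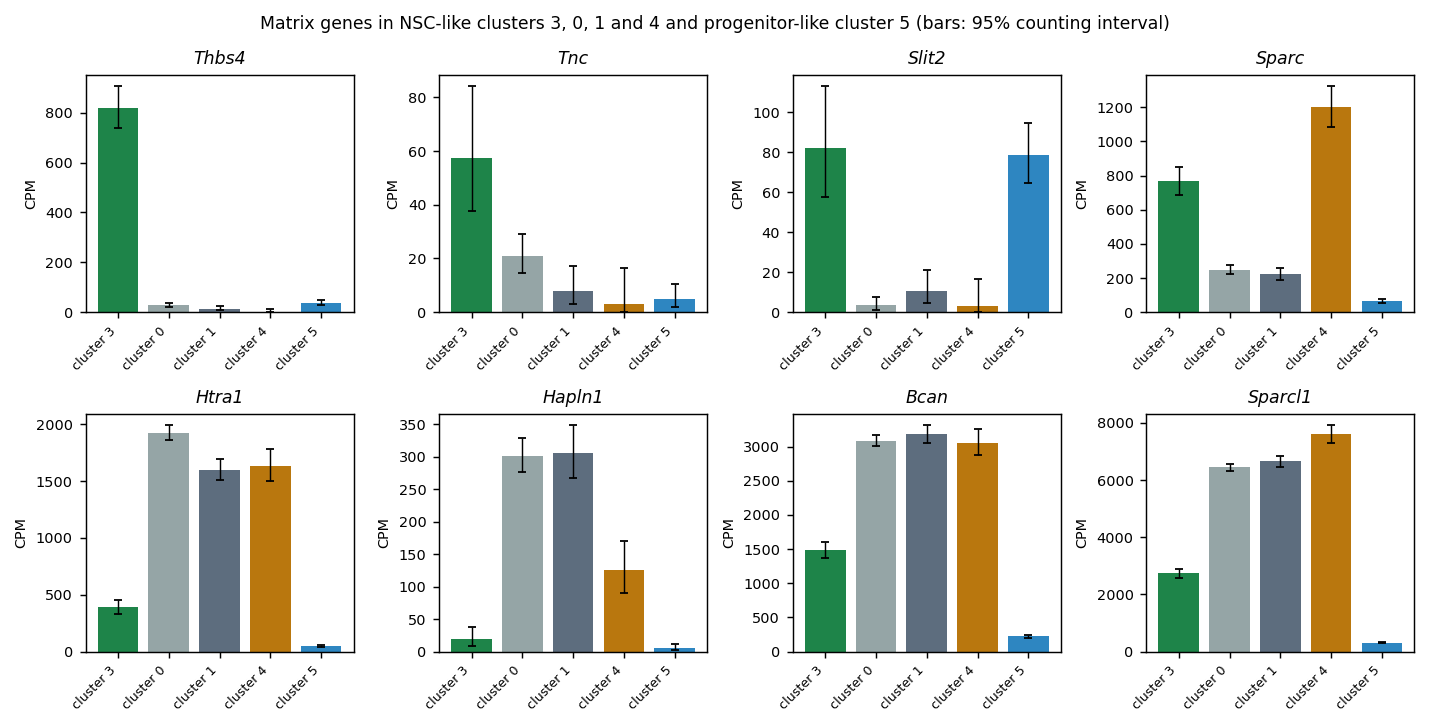
CPM of 8 matrix genes in NSC-like clusters 3, 0, 1 and 4 and progenitor-like cluster 5; bars show the level of the summed cells and whiskers the 95% Poisson interval, which covers counting error only. Thbs4, Tnc and Slit2 are high in cluster 3, where Htra1, Hapln1, Bcan and Sparcl1 are at their lowest NSC-like level.

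Cluster 3 Thbs4 differed by sort. It was at 924.9 to 1382 CPM in the 4 Troy-GFP libraries, where cluster 0 stood at 0 to 93.91 CPM. It was at 353.6 CPM in GLAST/EGF cluster 3 cells (18 cells, 64.19 and 715.9 CPM in the 2 libraries with at least 5 of them) and at 468.9 CPM in day-60 tdTomato ones (18 cells, 113.8 and 528.1 CPM). With every cell thinned to 1000 transcripts, 46.9% of cluster 3 cells held a Thbs4 transcript, against 2.22% in cluster 0 and 2.13% in the 47 microglia-like cells, which should lack it. Without thinning, the shares were 71.9% in cluster 3, 7.57% in cluster 0 and 4.26% in microglia-like cells. The median was 4493.6 transcripts per cell in cluster 3 and 3068.1 in microglia-like cells. No microglia-like cell came from the Troy-GFP sort, so these cells cannot gauge stray transcripts in its libraries. Slit2 shares after thinning were low, at 5.21% in cluster 3, 6% in cluster 5 and 0% in microglia-like cells.

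Neuroblast-like cells (217) carried a different set. Vcan stood at 290.4 CPM and Ncan at 197.5 CPM in the class, with Thbs4, Tnc and Hapln1 at 0. Vcan differed between its clusters, with 403.2 CPM in cluster 13, led by Nrep, Stmn2 and Dcx, and 136.5 CPM in cluster 2, led by Dlx1as, Cd24a and Ccnd2. Ncan stood at 204.2 CPM in cluster 13 and 188.5 CPM in cluster 2. The unnamed cluster 15 was similar, with Vcan at 236.5 CPM, Ncan at 136.7 CPM and Hapln1 at 0. Oligodendrocyte precursor-like cells combined Vcan at 1644 CPM with Bcan at 1920 CPM, Ncan at 341.3 CPM and Sparcl1 at 1427 CPM, while Slit2 was at 0.

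Sparc was high in several classes other than NSC-like cells. It stood at 4756 CPM in cluster 21 (19 cells, all from the mixed day-60 sort, led by Npy, Frzb and Kctd12), 2930 CPM in fibroblast-like cells, 2395 CPM in microglia-like cells and 2251 CPM in endothelial-like cells, against 412.8 CPM in NSC-like and 8.573 CPM in neuroblast-like cells. Among microglia-like cells 59.6% held a Sparc transcript, and the 2 libraries with at least 5 of them stood at 201 and 2106 CPM. Its relative Sparcl1 parted from it in microglia-like cells, at 132.2 CPM, and was shared in cluster 21 at 7041 CPM and in endothelial-like cells at 1854 CPM.

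By sort, all of the 10 genes except Vcan and Slit2 had a higher mean in the Troy-GFP and day-60 tdTomato sorts, rich in NSC-like cells, than in the Ki67-RFP and day-2 sorts. Thbs4 had 158.6, 300.8, 211 and 174.7 CPM in the 4 Troy-GFP libraries, a mean of 211.3 ± 63.6 (SD, n = 4). The next sorts were GLAST/EGF at 36.53 ± 28.43, Prom1/CD24 at 33.35 ± 66.71 and day-60 tdTomato at 27.15 ± 15.75 CPM, whose libraries overlap one another but not the Troy-GFP ones. The Prom1/CD24 mean rests on library 2, at 133.4 CPM from 14.2 transcripts, with the other 3 libraries at 0. Day-2, Ki67-RFP and mixed day-60 libraries lay at 0 to 7.109 CPM.

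Tnc was low throughout. It averaged 17.77 ± 4.343 CPM in Troy-GFP libraries, 16.68 ± 7.524 CPM in GLAST/EGF ones and 10.29 ± 5.208 CPM in day-60 tdTomato ones (SD, n = 4 each), and these overlap. It was at or under 7.109 CPM in each library of the other sorts and at 0 in all 4 Prom1/CD24 libraries. Slit2 was highest in GLAST/EGF libraries, with 29.85, 69.86, 69.65 and 59.19 CPM, and these overlap the Troy-GFP libraries at 24, 35.34, 43.21 and 20.75 CPM. It was lowest in the mixed day-60 sort, at 4.653 ± 5.601 CPM.

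Among the lecticans, Bcan was highest in the day-60 tdTomato libraries, with 2217, 2605, 2565 and 2510 CPM. It had 1607, 1856, 1985 and 1946 CPM in Troy-GFP libraries, and no library of either sort overlapped the other. Its lowest level was in Ki67-RFP, at 43.43 ± 13.68 CPM. Ncan kept a narrower range, with 290.9 ± 10.48 CPM in day-60 tdTomato, 202.9 ± 19.27 in Troy-GFP and 73.48 ± 7.684 in Prom1/CD24 libraries. Vcan was ordered differently: it was highest in day-2 tdTomato libraries, with 219.3, 174.4, 151.5 and 224.7 CPM, and low in day-60 tdTomato ones, with 45.32, 34.95, 46.84 and 39.18 CPM. The Vcan libraries of each pair of neighbouring sorts overlap.

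Hapln1 averaged 219.3 ± 23.78 CPM in day-60 tdTomato and 159.3 ± 21.59 CPM in Troy-GFP libraries, and 46.38 ± 23.74 CPM or less in every other sort. Sparcl1 was also highest in these sorts, at 5059 ± 302.7 CPM in day-60 tdTomato and 3793 ± 432.9 CPM in Troy-GFP libraries, down to 82.82 ± 36.94 CPM in Ki67-RFP libraries. Htra1 spanned a wide range, with 1324 ± 85.19 CPM in day-60 tdTomato, 1096 ± 136.4 in Troy-GFP and 6.939 ± 3.705 in Ki67-RFP libraries. Sparc was highest in the Prom1/CD24 libraries, with 880, 655.4, 1515 and 832.2 CPM, all above the other sorts.

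**Figure D3:**
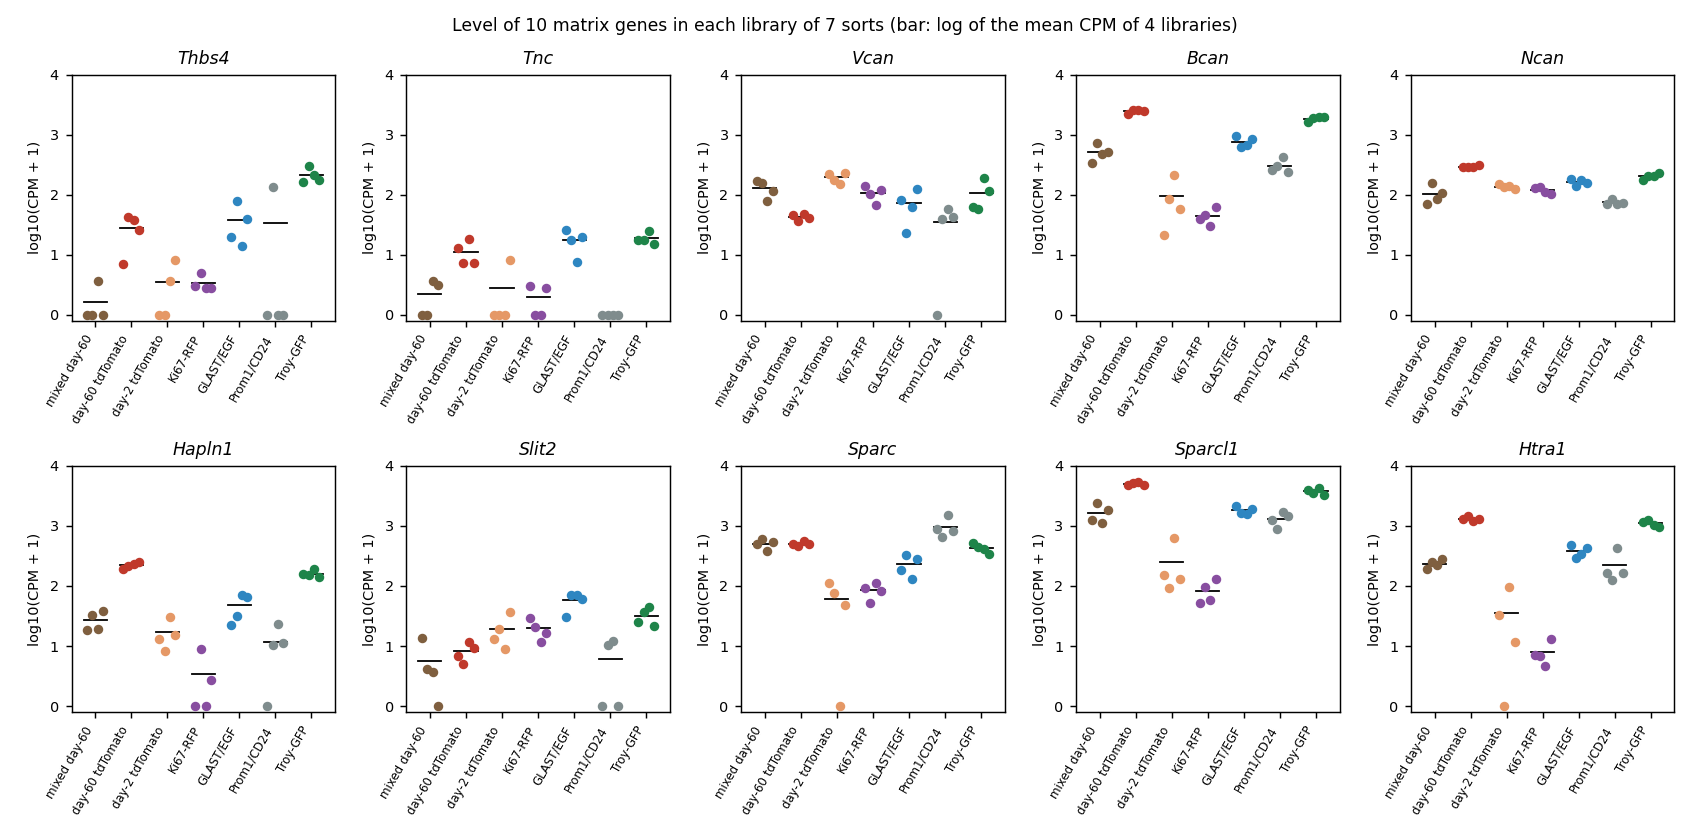
Level of each matrix gene in each library as log10(CPM + 1), by sort; points are the 4 libraries and the bar is the log of their mean. Bcan, Hapln1, Sparcl1 and Htra1 are high in the day-60 tdTomato and Troy-GFP libraries and low in Ki67-RFP ones, Thbs4 is highest in Troy-GFP and Sparc in Prom1/CD24 libraries.

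The sorts were compared with limma on the sums of each library's cells. A gene was tested if at least as many libraries as the smaller sort has reached the equivalent of 10 transcripts at the median depth and all libraries together held 15, and it passed at a Benjamini-Hochberg adjusted p under 0.05 over all tested genes. Folds in the text are on the log2 scale with their standard errors. Genes near the filter can enter only through the sort where they are high, so the counts below describe the tested genes only. In these sums, fewer cells of a type and fewer transcripts per cell cannot be told apart.

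The dividing cells held far less of most of the 10 genes than the Troy-GFP cells. In Ki67-RFP libraries relative to Troy-GFP ones, 8 of the 9 tested matrix genes passed and all 8 fell, where 59.6% of 8396 tested genes changed, 28.4% higher and 31.2% lower; Tnc was not tested. The 9 had a median log2 fold of -5.54, against -0.02 over all genes. Thbs4, Hapln1 and Htra1 lay under the filter in every Ki67-RFP library and entered through the Troy-GFP libraries alone. They could be counted only as lower, and the median includes them. NSC-like cells were 0.312% of a Ki67-RFP library on average and 65.8% of a Troy-GFP library, and the part of this in each fold was not tested. Thbs4 had 2.019, 3.88, 1.805 and 1.749 CPM in Ki67-RFP libraries and its log2 fold was -6.14 ± 0.60 (SE, adjusted p = 1.8e-09). Htra1 had 6.066, 5.828, 3.617 and 12.24 CPM in Ki67-RFP libraries, against 1139, 1264, 1030 and 949.7 CPM in Troy-GFP libraries, a log2 fold of -7.34 ± 0.45 (adjusted p = 2.2e-13). The groups do not overlap for either gene. Hapln1 (-6.33), Sparcl1 (-5.71) and Bcan (-5.54) fell too. Hapln1 was at 0 in 2 of the 4 Ki67-RFP libraries, so its fitted fold depends on the prior count, and it was -6.99 without Ki67-RFP library 2.

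Ncan fell less, with 127.5, 134.1, 108.5 and 101.6 CPM in Ki67-RFP libraries, against 177.6, 203, 206.6 and 224.3 CPM in Troy-GFP libraries (log2 fold -0.90 ± 0.15, adjusted p = 7.3e-06). Progenitor-like and neuroblast-like cells held 56% and 26% of the Ki67-RFP Ncan transcripts. Slit2 passed at -0.87 ± 0.35 (adjusted p = 0.035), but its libraries overlap and the call was lost without Ki67-RFP library 2, 3 or 4 or Troy-GFP library 2 or 3 (adjusted p = 0.056 to 0.15). Vcan had 136.5, 101.1, 67.01 and 119.5 CPM in Ki67-RFP libraries, against 60.95, 55.75, 187.6 and 113.6 CPM in Troy-GFP libraries, and did not pass (0.08 ± 0.27, adjusted p = 0.8). Within the 1 flow cell both sorts name, Vcan fell by 0.63 on the log2 scale (adjusted p = 0.035), with 2 Troy-GFP libraries.

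Sparc in the dividing sort came from few cells. It had 90.9, 51.22, 112.5 and 80.44 CPM in Ki67-RFP libraries, against 511, 439.4, 409.5 and 342 CPM in Troy-GFP libraries (log2 fold -2.49 ± 0.18, adjusted p = 7.1e-12). A set of 10 microglia-like cells, 3.17% of the Ki67-RFP cells, held 82.2% of its transcripts there. In the Troy-GFP sort, with no microglia-like cell, NSC-like cells held 60.6% and endothelial-like cells 21.8%.

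At day 60 after labelling, matrix genes of NSC-like cells were high in the labelled cells and Vcan was low. In day-60 tdTomato relative to day-2 tdTomato libraries, all 7 tested matrix genes passed, 6 higher and Vcan lower, where 67.6% of 7648 genes changed, 34.8% higher and 32.8% lower; Thbs4, Tnc and Slit2 were not tested. Their median log2 fold was 4.78, the fold of Sparc itself, against 0.01 over all genes. NSC-like cells were 83.1% of a day-60 and 2.48% of a day-2 library on average, and ages differ. Htra1 had 1322, 1433, 1225 and 1316 CPM at day 60, against 32.12, 0, 94.66 and 10.68 CPM at day 2 (log2 fold 6.44 ± 0.61, adjusted p = 4.8e-08). Bcan rose by 5.23 ± 0.34, Sparcl1 by 4.90 ± 0.31, Sparc by 4.78 ± 0.72 and Hapln1 by 3.94 ± 0.38 on the log2 scale, and no library of 1 day overlaps the other for any of them. Sparc was at 0 in day-2 library 3, and its log2 fold was 2.93 ± 0.25 (adjusted p = 8.1e-08) without that library. Without it Bcan was at 5.83, Sparcl1 at 5.53 and Htra1 at 7.37, and Htra1 was at 5.25 without day-2 library 2, where it was at 0.

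Ncan rose less, with 284.2, 284.6, 288.4 and 306.4 CPM at day 60, against 146.9, 133, 140.4 and 121.1 CPM at day 2 (log2 fold 1.29 ± 0.15, adjusted p = 6e-07). Vcan fell by 1.97 ± 0.21 on the log2 scale (adjusted p = 2.4e-07), and its day-60 libraries were all below the day-2 ones. Neuroblast-like cells held 64.7% of the day-2 Vcan transcripts and NSC-like cells 85.2% of the day-60 ones. The few glial cells of the day-2 sort supplied most of its glial matrix transcripts: 6 NSC-like cells held 97.8% of Htra1, 90% of Hapln1, 71.2% of Sparcl1 and 67.6% of Bcan, and 5 microglia-like cells held 95.2% of Sparc.

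Vcan was higher at day 2 after labelling than in cells sorted while dividing. In day-2 tdTomato relative to Ki67-RFP libraries, 3 of 5 tested matrix genes passed, 2 higher and 1 lower, where 28.5% of 6952 genes changed, 14.3% higher and 14.2% lower. Vcan was above every Ki67-RFP library in every day-2 library (log2 fold 0.85 ± 0.19, adjusted p = 0.0017). Neuroblast-like cells were 59.8% of a day-2 library and 23.8% of a Ki67-RFP library on average. The unnamed cluster 15, which also held Vcan, was 13.75% and 16.85%. Among neuroblast-like cells alone, Vcan had 310, 280.7, 314.8 and 421.7 CPM at day 2, against 220, 151.5, 185 and 380.6 CPM in Ki67-RFP libraries, which overlap, and the log2 fold was 0.47 ± 0.25 (adjusted p = 0.19). Ncan in those cells gave -0.11 ± 0.25 (adjusted p = 0.8); 0 of these 2 tested matrix genes passed, where 21.7% of 2207 genes did, 9.83% higher and 11.8% lower, and 750 had an unadjusted p under 0.05. Within cluster 13 alone the Vcan fold was -0.40.

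The other 2 calls of that comparison were lost without day-2 library 3. Sparcl1 had 153.4, 93.12, 617.2 and 129.4 CPM at day 2, against 50.69, 94.22, 56.33 and 130 CPM in Ki67-RFP libraries (log2 fold 1.32 ± 0.39, adjusted p = 0.012). Without day-2 library 3 it was 0.64 (adjusted p = 0.077), and without Ki67-RFP library 1 it was 1.13 (adjusted p = 0.052). Sparc had 112.3, 76.08, 0 and 46.72 CPM at day 2, and its log2 fold was -2.06 ± 0.69 (adjusted p = 0.026), against -0.15 (adjusted p = 0.74) without day-2 library 3 and -2.74 (adjusted p = 0.0095) without day-2 library 1. Day-2 library 3 held 3 of the 6 NSC-like cells of its sort. The 5 microglia-like cells of the sort lay in day-2 libraries 1, 2 and 4. Bcan, at 0.81 ± 0.41, did not pass (adjusted p = 0.14); it passed without day-2 library 1 (adjusted p = 0.0044) and was 0.17 (adjusted p = 0.76) without day-2 library 3.

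The GLAST/EGF sort, with fewer NSC-like and more progenitor-like cells, was set against Troy-GFP. Here 7 of 9 tested matrix genes passed, all lower, where 30.4% of 7818 genes changed, 14.9% higher and 15.5% lower. NSC-like cells were 40.1% of a GLAST/EGF and 65.8% of a Troy-GFP library on average. Thbs4 had 18.99, 76.06, 13.02 and 38.06 CPM in GLAST/EGF libraries, all below the Troy-GFP ones, and its log2 fold was -2.90 ± 0.36 (adjusted p = 6.9e-06). Hapln1 (-1.89), Htra1 (-1.61), Bcan (-1.36), Sparcl1 (-1.14) and Sparc (-1.04) fell too, with no library overlap for any of the 5. Within the shared flow cell, with 2 libraries a sort, Sparc gave -0.68 (adjusted p = 0.077) and Vcan passed at -1.78 (adjusted p = 0.018), against -0.52 (adjusted p = 0.33) over all 8 libraries. Ncan passed narrowly at -0.39 ± 0.15 (adjusted p = 0.046), and its call was lost without any 1 of GLAST/EGF libraries 2, 3 and 4 and Troy-GFP libraries 2, 3 and 4 (adjusted p = 0.068 to 0.13) or the gut-led cluster (adjusted p = 0.08). Slit2 gave 0.81 ± 0.31 (adjusted p = 0.052), and 1.04 (adjusted p = 0.0087) without GLAST/EGF library 1. Progenitor-like cells held 81.2% of the GLAST/EGF Slit2 transcripts and 47.5% of the Troy-GFP ones.

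The mixed day-60 sort, taken from the SEZ or olfactory bulb with O4+ cells, was set against day-60 tdTomato. Of 7 tested matrix genes 6 passed, with Vcan higher and 5 lower, where 43.3% of 8152 genes changed, 22.2% higher and 21.1% lower. The lower ones were Hapln1 (-3.23), Htra1 (-2.63), Bcan (-2.45), Sparcl1 (-1.82) and Ncan (-1.71). Vcan had 167.8, 152.4, 76.94 and 114.7 CPM in mixed day-60 libraries, all above the day-60 tdTomato ones (log2 fold 1.42 ± 0.27, adjusted p = 0.00037), and 17 oligodendrocyte precursor-like cells held 88% of its transcripts. Sparc was at similar levels, with 507.5, 599.8, 387.9 and 536.4 CPM in mixed day-60 libraries, against 498.8, 460.7, 548.7 and 500.2 CPM in day-60 tdTomato libraries (log2 fold -0.13 ± 0.14, adjusted p = 0.49). Its sources were not the same: cluster 21 held 48.8% of the mixed day-60 Sparc transcripts and none of the day-60 tdTomato ones, where NSC-like cells held 46.7%.

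In the small Prom1/CD24 sort, relative to Troy-GFP, 7 of 8 tested matrix genes passed, Sparc higher and 6 lower, where 26% of 5680 genes changed, 13.7% higher and 12.3% lower. The calls over all genes were 52.5% higher, and 63.6% with library totals as the only scaling. Sparc passed at 1.04 ± 0.23 (adjusted p = 0.004). Endothelial-like cells held 31% of its Prom1/CD24 transcripts, NSC-like cells 19.5% and microglia-like cells 17.3%. Hapln1 (-3.37), Bcan (-2.68), Htra1 (-2.55), Sparcl1 (-1.64) and Ncan (-1.42) fell. Hapln1 had 4.012 transcripts over all Prom1/CD24 libraries and entered through the Troy-GFP libraries alone, so the size of its fold depends on the prior count. Thbs4 passed at -3.90 ± 0.83 (adjusted p = 0.003), a fitted fold that depends on the prior count since 3 of the 4 Prom1/CD24 libraries were at 0; it was -5.0 without Prom1/CD24 library 2 and -3.19 without library 4. Vcan did not pass (-1.39 ± 0.84, adjusted p = 0.24).

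**Figure D4:**
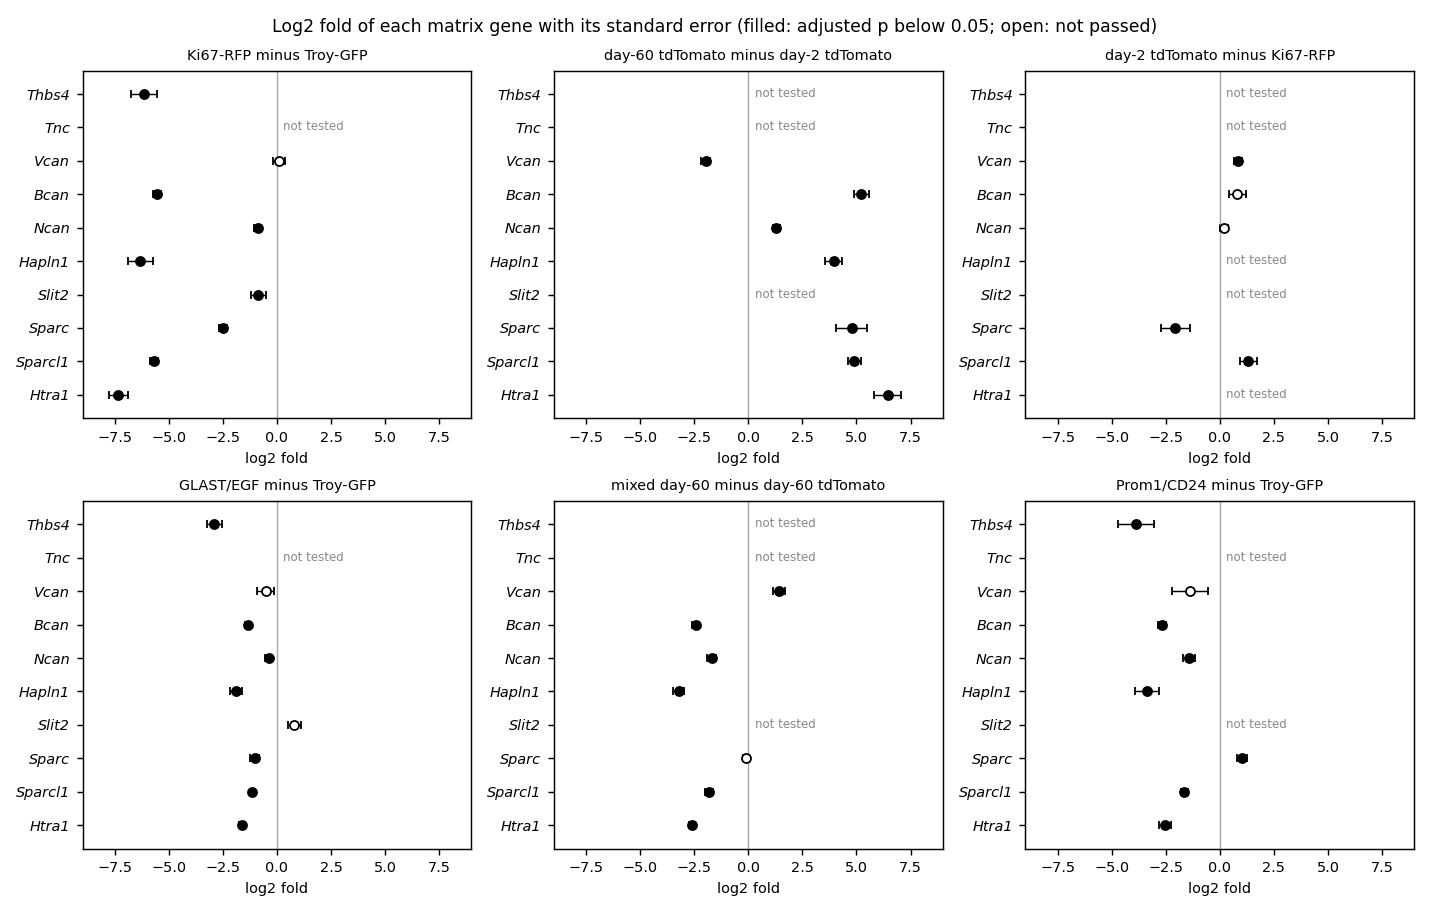
Log2 fold of each matrix gene with its standard error in the 6 comparisons of all cells, 4 libraries a sort; filled points passed at an adjusted p under 0.05, open points did not, and genes with too few transcripts were not tested. Ki67-RFP minus Troy-GFP and day-60 minus day-2 tdTomato run in opposite directions for Bcan, Ncan, Hapln1, Sparc, Sparcl1 and Htra1.

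Within the NSC-like class, Thbs4 was far lower in day-60 tdTomato than in Troy-GFP cells. Between these sorts 5 of 8 tested matrix genes passed, where 2.49% of 6472 genes did, 1.31% higher and 1.17% lower; 3 of the 5 were higher and 2 lower. The median log2 fold was 0.19 over these 8 and 0.00 over all genes. Cluster 0 was the largest in both sorts, followed by cluster 1 in day-60 cells (113 of 290) and cluster 3 in Troy-GFP cells (55 of 205), and ages and sex differ between the sorts. Thbs4 had 8.195, 47.8, 44.75 and 31.65 CPM in day-60 NSC-like cells, against 226.8, 402, 297.3 and 267.3 CPM in Troy-GFP NSC-like cells. Every day-60 library was below every Troy-GFP library, and the log2 fold was -3.25 ± 0.32 (adjusted p = 7.4e-09). Within cluster 3, which held 18 of the day-60 NSC-like cells, Thbs4 stood at 468.9 CPM in day-60 cells and 1093 CPM in Troy-GFP cells. Within cluster 0 it stood at 2.761 CPM in day-60 cells and 43.46 CPM in Troy-GFP cells.

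The other 4 calls were small. Ncan had 385.6, 340.4, 355.3 and 386.7 CPM in day-60 NSC-like cells, against 210.9, 197, 248.8 and 294.4 CPM in Troy-GFP ones (log2 fold 0.65 ± 0.14, adjusted p = 0.0065). Sparcl1 gave 0.28 ± 0.07 (adjusted p = 0.012) and Bcan 0.28 ± 0.08 (adjusted p = 0.042). Sparc had 282, 279.7, 307.4 and 325.8 CPM in day-60 cells, against 561.6, 393.4, 395.8 and 372.8 CPM in Troy-GFP cells (-0.51 ± 0.14, adjusted p = 0.035). No library overlaps between the sorts for these 4 genes. Without the other flow cell, which leaves 2 Troy-GFP libraries, only Thbs4 of the 8 passed (-3.24, adjusted p = 9.3e-08), with Ncan at 0.45 (adjusted p = 0.23), Sparcl1 at 0.26 (adjusted p = 0.051), Sparc at -0.35 (adjusted p = 0.36) and Bcan at 0.16 (adjusted p = 0.41). The Bcan call was lost without any 1 day-60 library or Troy-GFP library 1 or 2 (adjusted p = 0.062 to 0.2), the Sparc call without day-60 library 1, 2 or 3 or Troy-GFP library 1 (adjusted p = 0.056 to 0.24) and the Sparcl1 call without Troy-GFP library 2 (adjusted p = 0.063). Within cluster 0 alone, where Thbs4 was too low to be tested, only Sparc of the 7 tested passed (-1.16, adjusted p = 0.021), and Ncan gave 0.49 (adjusted p = 0.17).

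**Figure D5:**
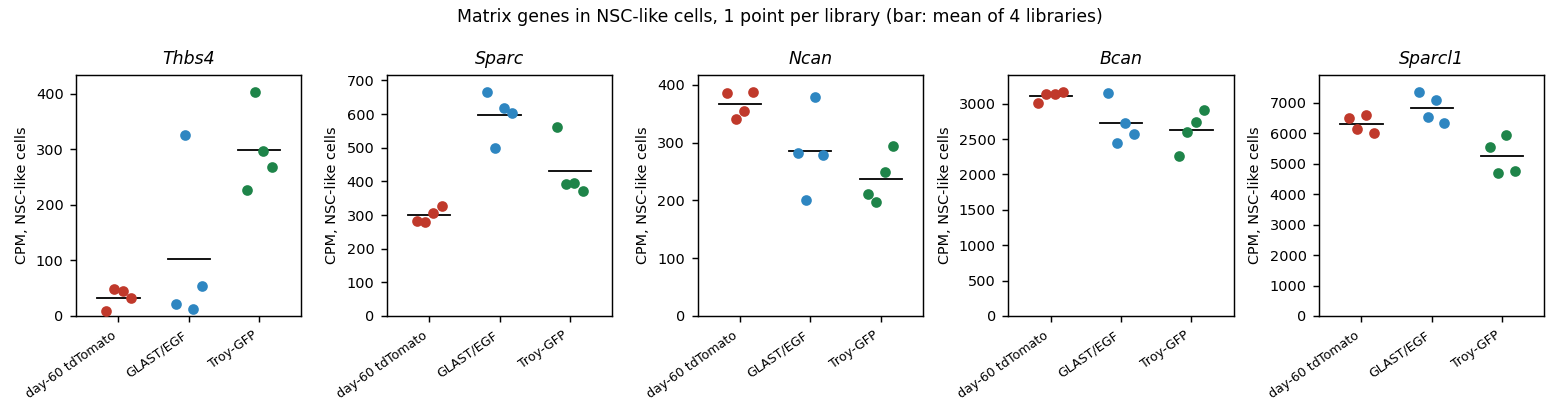
CPM of 5 matrix genes in the NSC-like cells of each library for the day-60 tdTomato, GLAST/EGF and Troy-GFP sorts; points are libraries and the bar is their mean. Thbs4 lies at 8.195 to 47.8 CPM in day-60 libraries and 226.8 to 402 CPM in Troy-GFP libraries, with GLAST/EGF library 2 apart from its sort at 325.9 CPM.

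Between GLAST/EGF and Troy-GFP, 0 of 8 tested matrix genes passed in NSC-like cells, where 0% of 3525 genes did in limma with precision weights and 0 in limma's trend fit, and 231 had an unadjusted p under 0.05. Thbs4 had 20.77, 325.9, 12.99 and 53.38 CPM in GLAST/EGF NSC-like cells, and library 2 lies within the Troy-GFP range (log2 fold -2.40 ± 0.58, adjusted p = 0.15). Without that library the fold was -3.25 (adjusted p = 0.065), and Thbs4 passed with no filter on low counts (adjusted p = 0.00081), with coarser clusters (adjusted p = 0.0059) and with matrix genes kept in the clustering (adjusted p = 0.0018). Htra1 passed with coarser clusters (-0.73, adjusted p = 0.033) and with matrix genes kept (-0.74, adjusted p = 0.014). Hapln1 passed with matrix genes kept (-0.95, adjusted p = 0.038) and Sparcl1 with no filter (0.24, adjusted p = 0.02). Sparcl1 had 7343, 6548, 7094 and 6342 CPM in GLAST/EGF cells, all above the Troy-GFP libraries at 5549, 4706, 5936 and 4767 CPM, and did not pass (0.36 ± 0.09, adjusted p = 0.18). Tnc, too sparse to be tested at 19.06 and 29.1 transcripts, had 41.54, 80.46, 39.01 and 53.38 CPM in GLAST/EGF NSC-like cells, all above the Troy-GFP range of 21.73 to 31.47 CPM.

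Progenitor-like cells of the GLAST/EGF and Ki67-RFP sorts were compared last. Of 5 tested matrix genes 3 passed, all higher in GLAST/EGF cells, where 14.7% of 6115 genes changed, 8.24% higher and 6.43% lower. The sorts fell differently over the clusters of the class: cluster 5 held 62 of 98 GLAST/EGF and 46 of 174 Ki67-RFP progenitor-like cells, and cluster 6, led by Top2a, held 23 of the GLAST/EGF and 102 of the Ki67-RFP ones. All 3 genes were higher in cluster 5 than in cluster 6, with Slit2 at 78.6 against 14.18 CPM, Bcan at 222.6 against 19.28 CPM and Sparcl1 at 314.9 against 77.47 CPM over all sorts. Within a single cluster the difference between the sorts was not tested. Slit2 had 38.26, 72.33, 88.22 and 80.14 CPM in GLAST/EGF progenitor-like cells, against 34.96, 19.42, 7.412 and 7.36 CPM in Ki67-RFP ones (log2 fold 2.27 ± 0.46, adjusted p = 0.0013). Bcan had 153.6, 137.2, 141.7 and 188.5 CPM in GLAST/EGF cells, against 46.74, 29.17, 32.16 and 68.98 CPM in Ki67-RFP cells (1.83 ± 0.25, adjusted p = 1e-05), and Sparcl1 gave 1.44 ± 0.25 (adjusted p = 0.00027). No library overlaps between the sorts for the 3 genes. Vcan (0.45 ± 0.34, adjusted p = 0.42) and Ncan (0.46 ± 0.19, adjusted p = 0.11) did not pass. With cells thinned to 1000 transcripts 0 of these genes passed. The Bcan call was lost with coarser clusters (adjusted p = 0.05) and with matrix genes kept in the clustering (adjusted p = 0.081). In that last setting 1 matrix gene passed in all. Sex differs between these sorts.

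Other genes of the matrix were counted in 3 lists, which were not tested as sets. Of 54 other matrix glycoproteins and proteoglycans, 20 were tested between Ki67-RFP and Troy-GFP, with 3 higher and 14 lower, where 28.4% of all tested genes were higher and 31.2% lower. The lowest were Gpc5 (-6.54 ± 0.53) and Sdc4 (-6.49 ± 0.53), a glypican and a syndecan of the cell surface, while Gpc1 (1.97 ± 0.34) and Slit1 (1.47 ± 0.45), a relative of Slit2, were higher. Of 32 receptors of matrix and Slit proteins, 17 were tested, with 2 higher and 11 lower, and of 34 proteases and inhibitors 13 were tested, with 0 higher and 11 lower. The inhibitor Timp4 (-6.17 ± 0.53) was among the lower ones. Between day-60 and day-2 tdTomato, 12 matrix genes were higher and 3 lower of 16, 11 receptors higher and 2 lower of 18, and 9 proteases or inhibitors higher and 1 lower of 13, where 34.8% of all genes were higher and 32.8% lower. Lamb2 (5.49 ± 0.52) and Timp3 (5.79 ± 0.54) led, and Hmmr, a hyaluronan receptor with a role also in mitosis, fell by 4.39 ± 0.52.

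Between day-2 tdTomato and Ki67-RFP, 2 receptors were higher and 2 lower of 12, where 14.3% of all genes were higher and 14.2% lower. The Slit receptors Robo1 (1.53 ± 0.49, adjusted p = 0.021) and Robo2 (1.30 ± 0.35, adjusted p = 0.0077) were higher. Notch1 (-0.89 ± 0.17), a receptor of the Notch pathway kept in that list, and Ptprz1 (-0.42 ± 0.12), a receptor phosphatase that binds tenascins, were lower. Of the proteases and inhibitors 5 were higher and 0 lower of 8, among them Spon1 (1.36 ± 0.21), an adhesive protein kept in that list, and of the other matrix genes 1 was higher and 1 lower of 8. Between GLAST/EGF and Troy-GFP, 0 matrix genes were higher and 13 lower of 19, 1 receptor higher and 9 lower of 15, and 0 proteases or inhibitors higher and 5 lower of 13, where 14.9% of all genes were higher and 15.5% lower. Fibronectin (Fn1) fell by 1.47 ± 0.39 there. Between mixed day-60 and day-60 tdTomato, 8 matrix genes were higher and 12 lower of 27, 3 receptors higher and 9 lower of 18, and 1 protease or inhibitor higher and 8 lower of 16, where 22.2% of all genes were higher and 21.1% lower. Hapln2 (5.98 ± 0.80), the link protein of myelinated axons, and Tnr (4.87 ± 0.65), tenascin-R, were higher, where Hapln1 was lower. Between Prom1/CD24 and Troy-GFP, 1 matrix gene was higher and 5 lower of 16, 2 receptors higher and 7 lower of 14, and 0 proteases or inhibitors higher and 5 lower of 11, where 13.7% of all genes were higher and 12.3% lower. Fn1 (1.28 ± 0.35) was the higher matrix gene.

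The likeness of each gene's level to that of other genes over the 28 libraries was taken as a cosine, for genes with a mean of at least 50 CPM. It describes libraries that share plates and cell makeup. CPM values are never negative, so a cosine can be high without a shared pattern, and its usual value over gene pairs is not given here. Bcan was most like Gpr37l1 (0.997), Hapln1 most like Gja1 (0.99), Sparcl1 most like Prnp (0.993) and Htra1 most like Cxcl14 (0.994). Ncan was most like Kcnn2 (0.987), and Sparc most like Dynlt3 (0.962) and B2m (0.961). Lower best values were found for Vcan (Wrb, 0.948), Slit2 (Setbp1, 0.923), Tnc (Lars2, 0.919) and Thbs4 (Utp14b, 0.81).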

How the data were processed

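The authors deposited, per library, a table of estimated transcript counts per gene and well, read from molecular barcodes; the submitters' processing notes name BWA 0.6.2-r126 and mm10. Of 4801006 values above 0, 4800995 equal a whole number of the 256 possible barcodes after collision correction (tolerance 1e-06), so the values were not raw counts, and limma (version 3.58.1, voom weights, TMM scaling) was used in place of a count model. Summed cells per library were compared, with a prior count of 0.5 and, for classes, at least 5 cells per library and 3 libraries per sort. Tables list only rows with a transcript, and an absent row was read as 0. Cells were clustered with scanpy 1.11.5 (2000 variable genes, 30 components, 15 neighbours, Leiden resolution 1.0, without cell-cycle, ribosomal and listed matrix genes). Clusters were named from at least 3 fixed markers among the 100 leading genes. A cluster stayed unnamed if another class had more markers among its very first leading genes, or if it was shallow with none of its own there. Clusters led by at least 3 listed gut or liver genes also stayed unnamed, a rule written after the clusters were seen. Each well held 1 sorted cell, so no doublet caller was run; 0 cells were identical. The members and lists were chosen with earlier results of these data known. Beside the members, genes were named from the 3 highest and 3 lowest passing folds over the lists in each comparison of all cells, the 3 most alike in level and those that lead a cluster. The fit was tested on simulated data. Counting intervals (exact Poisson, 95%) and the floor of 3 transcripts cover counting error only.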

Additional observations from a re-analysis of the deposited data

Results flagged for a closer look

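In 6 of 69 sets of 4 libraries, 1 library lay far from the others by Dixon's criterion, which flags about 1 in 20 sets of normally distributed values. A set with 1 library above 0 and the others at 0 is always flagged, so that rate is no yardstick for sparse genes. Among them, 4 rest on few transcripts. Thbs4 was at 3.88 CPM in Ki67-RFP library 2 (2.004 transcripts), with the others at 1.749 to 2.019 CPM. It was at 2.633 CPM in mixed day-60 library 3 (a single transcript) and at 133.4 CPM in Prom1/CD24 library 2 (14.2 transcripts), with all others of those sorts at 0. Tnc was at 7.109 CPM in day-2 library 4 (2.004 transcripts), with the others at 0. Sparcl1 was at 617.2 CPM in day-2 library 3 (229.5 transcripts), with the others at 93.12 to 153.4 CPM. Htra1 was at 430.1 CPM in Prom1/CD24 library 3 (38.16 transcripts), with the others at 122.9 to 164.3 CPM.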

How the results depend on the processing

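Of 1250 alternative folds of matrix genes, 1152 kept direction and call, 55 lost and 14 gained a call and 29 changed sign. The cause was not tested. With total transcripts as the only scaling, the median of all genes shifted by 0.10 in Ki67-RFP minus Troy-GFP, -0.16 in day-60 minus day-2, 0.13 in mixed day-60 minus day-60 and 0.14 in Prom1/CD24 minus Troy-GFP. Depth limits Tnc, Slit2 and Thbs4 most, which were tested in the fewest comparisons.

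Thinning to 1000 transcripts left 1206 passing genes in Ki67-RFP minus Troy-GFP, 1287 in day-60 minus day-2, 443 in day-2 minus Ki67-RFP, 294 in GLAST/EGF minus Troy-GFP, 1058 in mixed day-60 minus day-60 and 314 (4 of the matrix genes) in Prom1/CD24 minus Troy-GFP. In classes it left 44 genes in NSC-like day-60 minus Troy-GFP, 94 in neuroblast-like day-2 minus Ki67-RFP, and 81 (0 of the matrix genes) in progenitor-like GLAST/EGF minus Ki67-RFP cells. The main flow cell alone gave 1024 genes in GLAST/EGF minus Troy-GFP, 779 in Prom1/CD24 minus Troy-GFP, 421 in progenitor-like cells and 1 matrix gene in NSC-like day-60 minus Troy-GFP. No filter gave 4581 genes in Prom1/CD24 minus Troy-GFP, 526 (2 matrix genes) in NSC-like GLAST/EGF minus Troy-GFP, 784 in neuroblast-like cells and 5 matrix genes in progenitor-like cells.

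In NSC-like day-60 minus Troy-GFP, limma's trend fit passed 2 matrix genes, the largest cluster 1 (35 genes), and 374 genes passed at resolution 0.5 and 281 with matrix genes kept in the clustering. In NSC-like GLAST/EGF minus Troy-GFP, 3 matrix genes passed at resolution 0.5 (84 genes) and 3 with matrix genes kept (169 genes); 1 gene passed with total scaling and 1 in the largest cluster. The largest neuroblast-like cluster gave 164 genes, and matrix genes kept gave 481 (1 matrix gene) in progenitor-like cells.

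Signs changed for Vcan in Ki67-RFP minus Troy-GFP (-0.63 in the main flow cell, -0.003, -0.12 and -0.18 without Ki67-RFP library 1, Troy-GFP library 1 or 2, with the leave-one-out folds reaching 0.42), Ncan in GLAST/EGF minus Troy-GFP (0.11 thinned), Sparc in mixed day-60 minus day-60 (8e-05 with total scaling, 0.17 thinned, 0.01 without mixed library 3) and Htra1 in NSC-like day-60 minus Troy-GFP (-0.11 in the largest cluster). In NSC-like GLAST/EGF minus Troy-GFP they changed for Bcan (-0.06 with no filter, -0.03 without GLAST/EGF or Troy-GFP library 1, -0.05 in the main flow cell, -0.44 at resolution 0.5, -0.46 with matrix genes kept, -0.07 in the largest cluster, -0.04 with the gut-led cluster), Ncan (-0.16 in the main flow cell, -0.10 in the largest cluster), Htra1 (0.005 thinned), Sparcl1 (-0.18 at resolution 0.5, -0.19 with matrix genes kept) and Vcan (0.05 with matrix genes kept, 0.09 with the gut-led cluster). In neuroblast-like cells they changed for Ncan (0.01 without Ki67-RFP library 1) and Vcan (-0.40 in the largest cluster), and in progenitor-like cells for Vcan (-0.11 in the main flow cell, -0.33 at resolution 0.5). None of these signs passed the test except Vcan in the main flow cell of Ki67-RFP minus Troy-GFP. The gut-led and largest-cluster settings were chosen after seeing the data, and so was the rule that left the gut-led cluster unnamed in the main setting.

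With 1 library left out, passing matrix genes numbered 7 to 8 (4745 to 5056 genes) in Ki67-RFP minus Troy-GFP, 7 to 8 (4988 to 5510) in day-60 minus day-2, 1 to 4 (1644 to 1873) in day-2 minus Ki67-RFP, 6 to 8 (1886 to 2294) in GLAST/EGF minus Troy-GFP, 6 to 7 (3122 to 3535) in mixed day-60 minus day-60 and 7 (958 to 1536) in Prom1/CD24 minus Troy-GFP, where 964 and 958 genes passed without Troy-GFP library 2 and 3. They numbered 3 to 5 (109 to 154) in NSC-like day-60 minus Troy-GFP, 0 (0 to 6) in NSC-like GLAST/EGF minus Troy-GFP, 0 (362 to 462) in neuroblast-like and 3 to 4 (673 to 883) in progenitor-like cells.

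Library numbers do not pair the samples: deviations of 24 same-numbered pairs correlated at -0.1 to 0.07. With the replicate block, the fold of Vcan in Ki67-RFP minus Troy-GFP was -0.03, Slit2 there lost its call (adjusted p = 0.059), and 3 genes passed in NSC-like GLAST/EGF minus Troy-GFP. In day-2 minus Ki67-RFP Bcan gained a call (1.14, adjusted p = 0.017) and Sparc lost it (-0.48, adjusted p = 0.46). In GLAST/EGF minus Troy-GFP Slit2 gained one (0.80, adjusted p = 0.035) and Ncan lost it (adjusted p = 0.071), and Vcan gained one in Prom1/CD24 minus Troy-GFP (-1.47, adjusted p = 0.035). The block changed no other matrix gene's call.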
